A study of Mus musculus with 3 samples.

Results

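S100 proteins are small calcium-binding proteins, each built around a pair of EF hands, the helix-loop-helix units that hold calcium ions. Most of them act as dimers that change shape when calcium binds and then attach to target proteins such as annexins, myosin or p53, and some are also released and bind receptors on the cell surface. *S100b* protein is a long-used marker of melanocytes, Schwann cells and melanoma, *S100a4* and *S100a6* are known from moving and growing cells, and *S100a8* and *S100a9* form calprotectin, the abundant calcium-binding protein of neutrophils. The levels of 10 S100 genes (*S100a1*, *S100a4*, *S100a6*, *S100a8*, *S100a9*, *S100a10*, *S100a11*, *S100a13*, *S100a16* and *S100b*), chosen by name, were described in mouse melan-a cells by RNA-seq. The files hold 16 S100 genes among 22698 Ensembl genes, and the 6 outside the list are given beside the members.

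melan-a is a line of immortalized mouse melanocytes on a C57BL/6J background, which the labels describe as derived from Ink4a-ARF-/- mice. The cells were untreated and grew in medium with a phorbol ester and cholera toxin, both of which stimulate melanocyte growth. The 3 samples, labelled as replicates 1, 3 and 4, form 1 group, so no condition was compared with another, and no label says that they came from separate cultures. P-values therefore refer only to differences between genes within these 3 samples, and the spread between the samples may be technical.

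Levels are in FPKM, reads scaled to the length of the gene and the size of the library. They allow genes to be set side by side, but the result depends on the gene length used. That length is not given in the sources used here. The FPKM of a replicate summed to between 358891 and 394507, and the library sizes recovered from the steps between low values were between 47300000 and 66100000 reads. Of the 8 melanocyte markers listed, 7 had at least 1 FPKM in all 3 replicates, with a summed level of 5711 to 6558 FPKM, and the other, *Kit*, was at 0.59 to 0.78 FPKM.

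All but one of the expressed members share the layout of the calcium-binding loop in the second EF hand, and the exception, *S100a10*, is one of the most highly expressed. The loops of 7 expressed members are shown because the EF hand is what the family shares. Each is a run of 36 coding bases read from mm9, in gene orientation, and the capitals mark the codons of loop positions 1, 3, 5 and 12, which carry calcium-binding side chains in a typical EF hand.
*S100a11* (chr3:93329959-93329994, plus strand, exon 3 of 3): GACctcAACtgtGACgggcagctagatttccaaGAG
*S100a10* (chr3:93368210-93368245, plus strand, exon 3 of 3): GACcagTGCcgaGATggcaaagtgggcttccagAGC
*S100a1* (chr3:90315206-90315241, minus strand, exon 3 of 3): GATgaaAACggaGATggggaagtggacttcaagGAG
*S100a6* (chr3:90418155-90418190, plus strand, exon 3 of 3): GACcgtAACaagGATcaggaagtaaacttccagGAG
*S100a4* (chr3:90409707-90409742, plus strand, exon 3 of 3): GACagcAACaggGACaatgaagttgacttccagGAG
*S100a13* (chr3:90328311-90328346, plus strand, exon 4 of 4): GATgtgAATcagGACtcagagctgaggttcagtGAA
*S100a16* (chr3:90346332-90346367, plus strand, exon 3 of 3): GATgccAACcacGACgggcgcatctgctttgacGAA

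In *S100a10*, only 2 of the 4 marked codons encode a residue allowed there by the PROSITE EF-hand pattern, whereas all 4 did in the other 9 members, *S100a8* and *S100a9* included. *S100a10* protein is known as the S100 protein that no longer needs calcium and stays in its active shape. The full pattern was matched in 7 of the 10 members and in 11 of the 16 S100 genes, against 216 of 22737 protein-coding genes (0.95%). *S100a9*, *S100a10* and *S100a13* lacked the full pattern, and their loops were placed by alignment with *S100a11*. Beyond the loop the members are only moderately alike. Over the 45 pairs of members the identity of the encoded proteins ranged from 22.5% to 58.7%, with a median of 35.1%. The closest pair was *S100a1* and *S100b* at 58.7%, and *S100a4* and *S100a6* shared 50.6%.

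In melan-a cells, *S100a11* dominated the family, followed by *S100a10*, and the calprotectin genes were at or near 0. Of the 10 members, 8 had at least 1 FPKM in all 3 replicates, beside 44.1% of all 22698 genes, and 7 had at least 10 FPKM, beside 21.7% of all genes. The median of the members' mean levels was 91.3 FPKM, against 0.277 FPKM over all genes, and 6 members were among the 1000 genes with the highest mean. The 10 members together summed to 2194, 2366 and 2103 FPKM in replicates 1, 3 and 4, a mean of 2221 ± 133 (SD, n = 3), which was 0.588% of all FPKM.

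**Figure D1:**
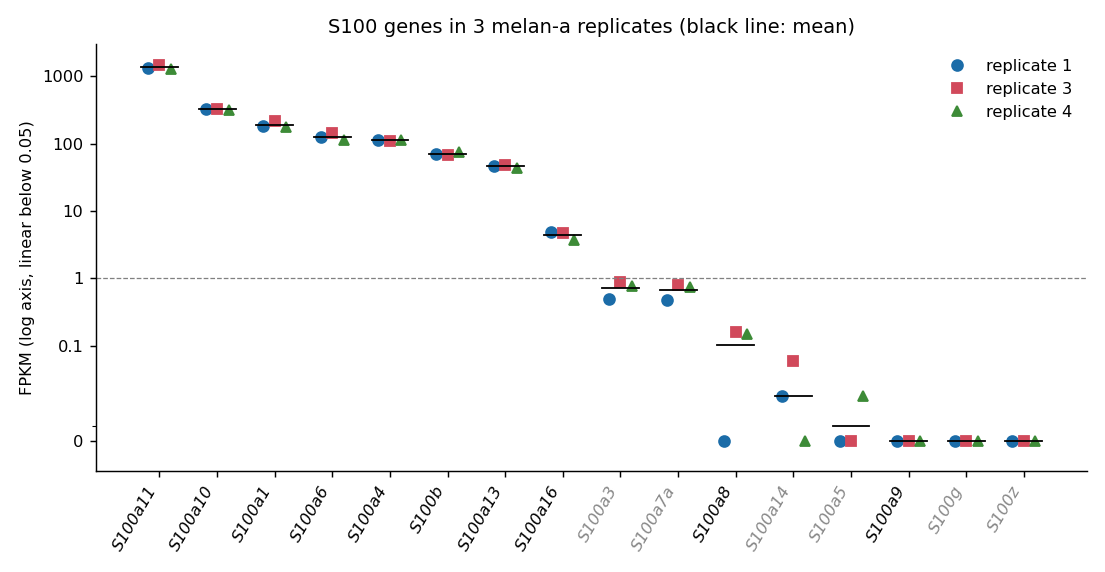
Level of each S100 gene in melan-a cells, with the gene on 1 axis and FPKM on the other, which is logarithmic and linear near 0, and with 1 point for each of replicates 1, 3 and 4. *S100a11* lies between 1268 and 1448 FPKM, above every other S100 gene, and *S100a9* is at 0 in all 3 replicates.

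*S100a11* (ENSMUSG00000027907, chr3:93324410-93330209, plus strand) encodes calgizzarin, a partner of annexins that is linked to membrane repair and to growth control. Its level was 1331, 1448 and 1268 FPKM in replicates 1, 3 and 4, a mean of 1349 ± 91.0 (SD, n = 3), and it ranked 19 of 22698 genes. Its share of the members' summed FPKM was 60.6%, 61.2% and 60.3% in replicates 1, 3 and 4. The other 9 members together reached 863, 918 and 835 FPKM, so *S100a11* alone exceeded their sum of FPKM in every replicate.

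*S100a10* (ENSMUSG00000041959, chr3:93359002-93368565, plus strand), the light chain of the annexin A2 complex at the plasma membrane, came next. It was at 324, 326 and 314 FPKM in replicates 1, 3 and 4 (321 ± 6.72, SD, n = 3), with rank 136. *S100a11* was 4.20-fold higher than *S100a10*, a difference of 2.07 ± 0.07 (SD, n = 3) in log2(FPKM + 0.1), and the replicates did not overlap. The size of this gap depends on gene length. *S100a10* has 3 annotated transcripts whose joined exons span 1212 bases, while its longest coding transcript has 685, and with that shorter length *S100a10* came to 569 FPKM and the log2 difference to 1.24. *S100a11* and *S100a10* together held 75.2% of the members' FPKM, with a range of 75.0% to 75.4% over the replicates.

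*S100a1* (ENSMUSG00000044080, chr3:90314956-90318314, minus strand) is best known from heart and skeletal muscle, where its protein acts on calcium release channels. In melan-a cells it was at 183, 218 and 173 FPKM in replicates 1, 3 and 4 (191 ± 23.6, SD, n = 3), the third level of the family, with rank 262. Replicate 3 was the highest, as for *S100a11*, and replicate 4 the lowest.

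*S100a6* (ENSMUSG00000001025, chr3:90416816-90418336, plus strand), or calcyclin, and *S100a4* (ENSMUSG00000001020, chr3:90407692-90409967, plus strand), or metastasin, followed at levels close to each other. *S100a6* was at 123, 144 and 113 FPKM in replicates 1, 3 and 4 (127 ± 16.2, SD, n = 3). *S100a4* was at 112, 111 and 113 FPKM (112 ± 1.39, SD, n = 3). In the deposited FPKM this was the smallest relative spread of the 8 expressed members, with a CV of 1.2%. The replicates of *S100a6* and *S100a4* overlapped. *S100a6* was higher in 2 of 3 replicates, by 0.17 ± 0.20 (SD, n = 3) in log2(FPKM + 0.1), with p = 0.5 in the exact permutation test of sign flips, and the sign of the difference turned (-0.06, exact permutation p = 0.75) with the length of the longest coding transcript.

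*S100b* (ENSMUSG00000033208, chr10:75716598-75723904, plus strand) was only the sixth S100 gene by level in these cells, although its protein is the S100 protein most used to mark melanocytes. It was at 70.8, 66.6 and 74.6 FPKM in replicates 1, 3 and 4 (70.7 ± 4.01, SD, n = 3) and held 3.2% ± 0.37 (SD, n = 3) of the members' FPKM. It is the only member that does not lie on chromosome 3, and its gene lies within the span of *Dip2a* on the opposite strand, with no shared exon bases. *S100b* is also a gene of glia, and of 6 Schwann cell and glia markers, 3 had at least 1 FPKM in all replicates (*Mbp*, *Prx* and *Pmp2*), with a summed level of 19.7 to 22.2 FPKM over the 6. *Pmp2*, a lipid-binding protein of peripheral myelin, was at 14.25, 11.85 and 16.03 FPKM in replicates 1, 3 and 4, and none of the 6 was at 0 in all replicates. *Pmp2* was highest in replicate 4 and lowest in replicate 3, as was *S100b*, but the other markers did not share this order. *Mbp*, *Prx* and *Mag* were highest in replicate 3 and lowest in replicate 4. *Gfap* was highest in replicate 3 and *Egr2* in replicate 1. The part of these markers in the *S100b* level was not tested, and in a bulk sample fewer cells of a type and less RNA per cell cannot be told apart.

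*S100a13* (ENSMUSG00000042312, chr3:90318357-90328503, plus strand), which takes part in the release of FGF1 from cells, was at 46.1, 47.45 and 43.7 FPKM in replicates 1, 3 and 4 (45.75 ± 1.88, SD, n = 3). *S100a16* (ENSMUSG00000074457, chr3:90341176-90347073, plus strand), linked to fat cell formation, was at 4.87, 4.78 and 3.73 FPKM (4.46 ± 0.634, SD, n = 3). A wide gap separated the pair. *S100a13* was 10.3-fold higher, by 3.34 ± 0.16 (SD, n = 3) in log2(FPKM + 0.1), and the step was larger than any other between neighbouring expressed members.

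The calprotectin genes were not measurable above a few reads. *S100a8* (ENSMUSG00000056054, chr3:90472993-90473956, plus strand) was at 0, 0.16 and 0.15 FPKM in replicates 1, 3 and 4, about 0, 3 and 4 reads. *S100a9* (ENSMUSG00000056071, chr3:90496554-90499643, minus strand) was at 0 in all 3 replicates, where a count of 0 allows up to 0.107, 0.122 and 0.087 FPKM (3 reads per library, counting error only). Of the 10 myeloid markers listed, the only one with at least 1 FPKM in all replicates was *Lyz2* (12.5 to 13.4 FPKM), 5 were at 0 in all (*Ptprc*, *Itgam*, *Mpo*, *Ngp* and *Camp*), and the summed level was 13.2 to 15.1 FPKM. For *S100a4*, known from fibroblasts, 1 of 8 fibroblast markers reached that level (*Col1a1*, 1.33 to 1.77 FPKM), *Lum* was at 0 in all replicates, and the summed level was 1.71 to 2.05 FPKM. None of 8 keratinocyte markers did, 3 of them were at 0 in all replicates (*Krt1*, *Trp63* and *Dsg3*), and their summed level was 0.41 to 0.77 FPKM.

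Apart from *S100a6* with *S100a4* and *S100a8* with *S100a9*, neighbours in the order of levels had replicates that did not overlap, in 7 of 9 pairs. *S100a10* was 1.68-fold above *S100a1*, by 0.75 ± 0.15 (SD, n = 3) in log2(FPKM + 0.1), and by 1.54 with the lengths of the longest coding transcripts. *S100a1* was 1.51-fold above *S100a6* (0.59 ± 0.03), *S100a4* 1.58-fold above *S100b* (0.66 ± 0.06) and *S100b* 1.54-fold above *S100a13* (0.63 ± 0.14), on the same scale and with the same n. For the 7 pairs the exact permutation test of sign flips, two-sided, gave p = 0.25, or 0.32 after Benjamini-Hochberg adjustment over 9 pairs. With 3 replicates 0.25 is the smallest p it can give, so no pair could pass 0.05. The order was the same in replicates 1 and 3, and in replicate 4 *S100a4* stood above *S100a6*.

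The share of *S100a11* changed with the quantity counted. It was 60.7% ± 0.44 (SD, n = 3) of the FPKM as deposited, 54.0% ± 0.64 with each gene's longest coding transcript as its length, and 45.5% ± 0.75 of the reads, which favour long genes. *S100a10* moved the other way, at 14.5% ± 0.61, 22.8% ± 0.85 and 25.8% ± 0.85 on the same 3 measures. *S100b*, which has the second longest exons among the members at 1484 bases, held 6.96% of the reads. On each measure *S100a11* ranked first and *S100a10* next.

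**Figure D2:**
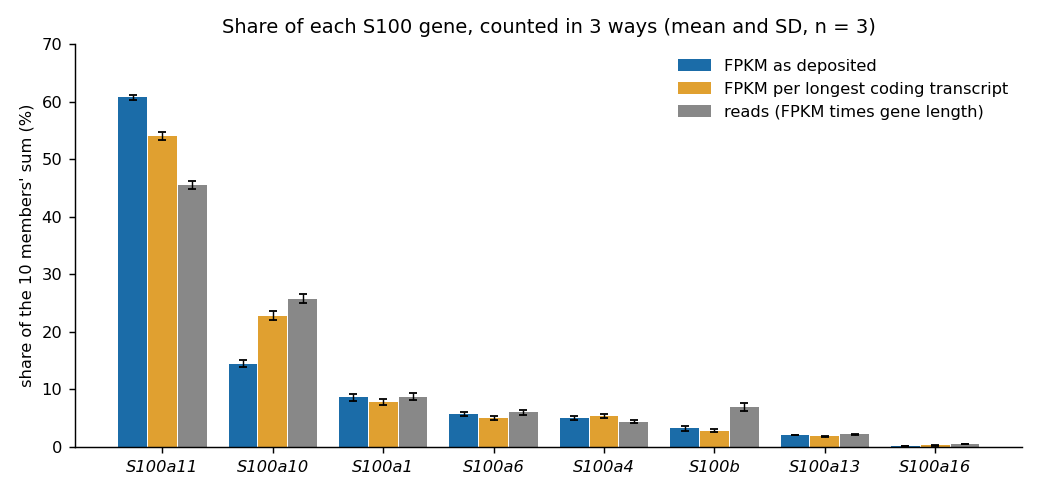
Share of the 10 members' sum for each of the 8 expressed S100 genes, in percent, with bars for the mean and whiskers for the SD over 3 replicates, counted by deposited FPKM, by FPKM per longest coding transcript and by reads. *S100a11* falls from 60.7% to 45.5% and *S100a10* rises from 14.5% to 25.8% between the deposited FPKM and the reads.

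*S100a11* is also the only S100 gene with long near-identical copies in the genome. In mm9, 7 other places matched over at least 50% of its transcript, with identities of 85.4% to 98.6%, and no other S100 gene had such a match. The closest copy listed in the files, *Gm7665* (ENSMUSG00000063628), was 98.6% identical over 502 bases. *Gm7665* was at 223, 247 and 188 FPKM in replicates 1, 3 and 4 (219.5 ± 29.45, SD, n = 3), with rank 216, which would place it between *S100a10* and *S100a1*. Its annotated length of 297 bases equals the coding length of *S100a11*, and its level came to 3569, 3468 and 3697 reads, or 9.8%, 9.9% and 8.6% of the *S100a11* reads in replicates 1, 3 and 4. Where both sequences are identical a read cannot be told apart, and how such reads were counted is not given in the sources used here, so both levels are uncertain. Adding the reads of *Gm7665* to *S100a11* raised the share of *S100a11* to 62.8%. A further copy, *Gm12854*, with 98.2% identity, was not analysed here, and *Gm5068*, with 93.3%, was at 0.06 to 0.28 FPKM.

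The 6 S100 genes outside the list added little. *S100a3* was at 0.5, 0.87 and 0.76 FPKM in replicates 1, 3 and 4, about 19, 29 and 36 reads, and *S100a7a* was at 0.48, 0.8 and 0.75 FPKM, about 19, 28 and 37 reads. *S100a14* stayed at or below 0.06 FPKM and *S100a5* at or below 0.03, and *S100g* and *S100z* were at 0 in all replicates. The sum of the 6 was 1.43 ± 0.373 FPKM (SD, n = 3).

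On chromosome 3, S100 genes with high levels lay beside S100 genes at or near 0. The 13 S100 genes there fell into a block of 11 in 185 kb (90.31 to 90.5 Mb) and a block of *S100a11* and *S100a10* in 44 kb (93.32 to 93.37 Mb), and 2.82 Mb separated the blocks. Within the first block, *S100a3* (0.71 FPKM, mean of 3) ended 1067 bases before *S100a4* (112 FPKM), and *S100a5* (0.01 FPKM) ended 1113 bases before *S100a6* (127 FPKM). *S100a1* and *S100a13* start head to head with 42 bases between them, and *S100a1* was 4.18-fold higher.

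The stretch between the blocks belongs to the epidermal differentiation complex, which holds genes of the outer skin layer, including the fused-type S100 genes that carry an S100 domain at the start of a long repetitive protein. Of its 61 measured genes, 49 were at 0 in all replicates and 1 had at least 1 FPKM in all of them. That gene, *Gm9774*, was named after its values were seen and was at 49.4, 59.3 and 43.8 FPKM. The highest mean among the others was 0.55 FPKM. Of the 7 fused-type genes listed (*Flg*, *Flg2*, *Hrnr*, *Rptn*, *Tchh*, *Tchhl1* and *Crnn*), none had at least 1 FPKM, 6 were at 0 in all replicates and *Tchh* had a mean of 0.0267 FPKM.

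**Figure D3:**
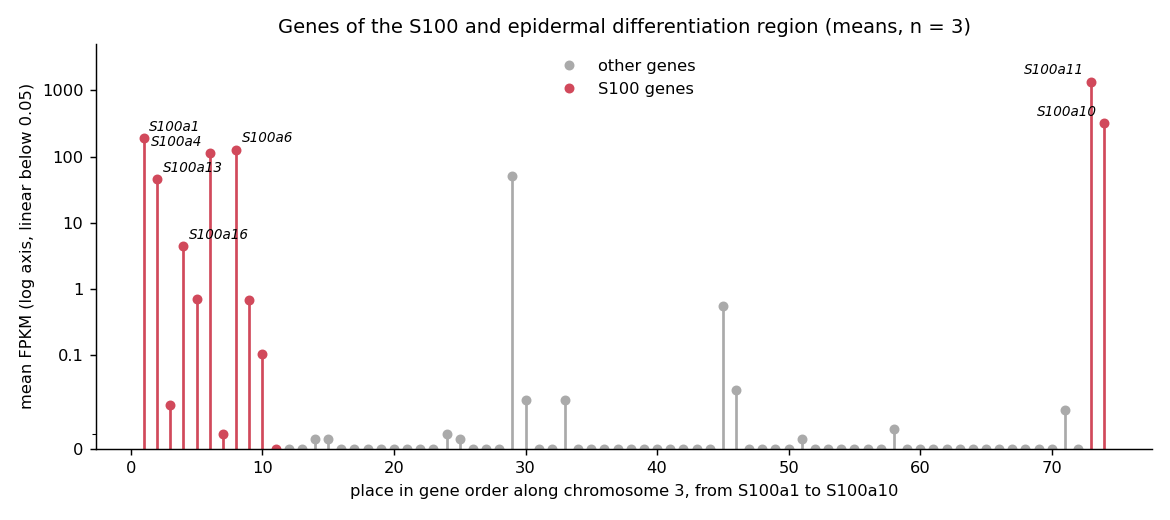
Mean FPKM over 3 replicates, on an axis that is logarithmic above 0.05 and linear below, of the 74 measured genes from *S100a1* to *S100a10* in their order along chromosome 3, with S100 genes in red and others in grey. The S100 genes with high levels sit at both ends, and 49 of the 61 genes between the blocks are at 0.

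S100 proteins act through their partners, and most of the partner genes listed were expressed beside them. Of 13 partner genes, 11 had at least 1 FPKM in all replicates, beside 44.1% of all 22698 genes. The list was chosen with earlier results of these data known. Over the 15 pairs of an S100 gene and a partner, the S100 gene was higher in all 3 replicates in 10 and the partner in 5, each with an exact permutation p of 0.25 (0.25 after adjustment over 15 pairs), the smallest that 3 replicates allow. Among the 13 pairs whose partner was expressed, the S100 gene was higher in all replicates in 8.

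For *S100a10* the ratio to its main partner was nearly the same in every replicate, which was not particular to partners. *S100a1* against *S100a6*, not a listed pair of partners, also had an SD of 0.03 in its log2 difference. *Anxa2*, which encodes annexin A2, was at 792, 816 and 754 FPKM in replicates 1, 3 and 4, and *S100a10* was at 0.4089, 0.3999 and 0.4161 of it. The difference was -1.29 ± 0.03 (SD, n = 3) in log2(FPKM + 0.1), with *Anxa2* higher. It was -0.47 when *S100a10* alone was given the length of its longest coding transcript and *Anxa2* was left as deposited. *Ahnak*, a giant scaffold protein that binds the complex, was at 34.4 ± 5.75 FPKM (SD, n = 3). *S100a10* was 9.35-fold higher, by 3.24 ± 0.27 (SD, n = 3) in log2(FPKM + 0.1). The difference was 4.06 when the length of *S100a10* alone was changed in the same way.

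The ratio of *S100a11* to *Anxa1* was far less even. *Anxa1*, the gene of annexin A1, was at 498, 327 and 609 FPKM in replicates 1, 3 and 4, and *S100a11* was 2.67-, 4.42- and 2.08-fold higher, a difference of 1.54 ± 0.55 (SD, n = 3) in log2(FPKM + 0.1). *Anxa1* was lowest in the replicate where *S100a11* was highest. *Anxa6*, the gene of annexin A6, was at 370, 437 and 320 FPKM, below *S100a11* (3.59-fold) and above *S100a6* (2.96-fold). *Anxa6* was highest in replicate 3, as were both S100 genes.

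Of the other *S100a6* partners, *Anxa11* was at 59.3, 65.6 and 46.5 FPKM in replicates 1, 3 and 4, *Cacybp*, the gene of calcyclin binding protein, at 37.4, 28.3 and 42.7, and *Sugt1*, a co-chaperone gene, at 19.8, 16.9 and 20.6. *S100a6* was above all 3, by 2.22-, 3.51- and 6.64-fold. The gap to *Cacybp* was widest in replicate 3 (5.11-fold) and narrowest in replicate 4 (2.64-fold).

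*Myh9*, the gene of the non-muscle myosin heavy chain that *S100a4* protein takes apart from its filaments, was at 223, 216 and 205 FPKM in replicates 1, 3 and 4. *S100a4* was lower in each, with a difference of -0.94 ± 0.08 (SD, n = 3) in log2(FPKM + 0.1). *Trp53*, the gene of p53, lay between the S100 genes it was paired with here. It was at 83.1, 90.5 and 85.3 FPKM, below *S100a4* (1.30-fold) and above *S100b* (1.22-fold). *Stk38*, a kinase gene whose product is activated by S100b protein, was at 25.1, 23.0 and 29.1 FPKM, and *S100b* was 2.75-fold higher.

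*S100a1* and *S100a13* each had a listed partner that was not expressed. *Ryr1*, the skeletal muscle calcium release channel, was at 0, 0.01 and 0 FPKM, and *Syt1*, a synaptic vesicle calcium sensor, was at 0 in all replicates. *Fgf1*, the growth factor released with S100a13 protein, was at 60.6, 57.8 and 68.1 FPKM, 1.36-fold above *S100a13*, with a difference of -0.44 ± 0.18 (SD, n = 3) in log2(FPKM + 0.1).

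**Figure D4:**
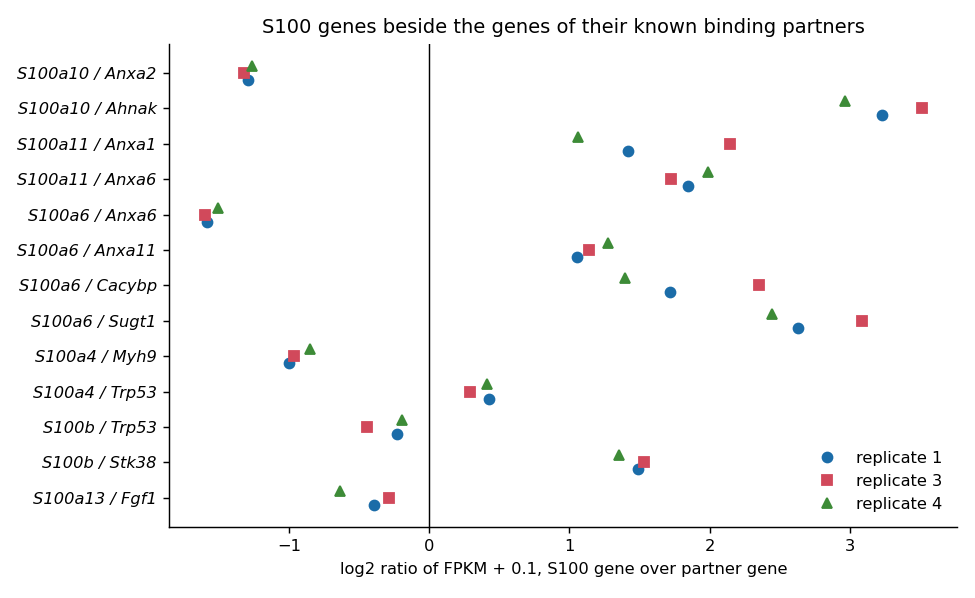
Log2 ratio of FPKM + 0.1 of an S100 gene over the gene of a known binding partner, with 1 row of points per pair and a separate symbol for replicates 1, 3 and 4, for the 13 pairs whose partner was expressed. The points of *S100a10* with *Anxa2* almost coincide below 0, while those of *S100a11* with *Anxa1* spread from a 2.08-fold to a 4.42-fold ratio.

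Of the 4 genes listed for S100 receptors, 3 had at least 1 FPKM in all replicates, beside 44.1% of all 22698 genes. *Bsg*, which encodes basigin, was the highest at 717, 853 and 620 FPKM in replicates 1, 3 and 4. *Alcam* was at 17.3, 13.2 and 22.2 FPKM and *Tlr4* at 5.28, 4.34 and 5.56. *Ager*, the gene of RAGE, the receptor best known for S100 ligands, was at 0.65, 0.39 and 1.27 FPKM and reached 1 FPKM in replicate 4 only.

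Set beside other EF-hand genes, *S100a11* stood high. Of 12 such genes measured, 9 had at least 1 FPKM in all replicates, beside 44.1% of all 22698 genes. The highest mean was 531 FPKM for *Capns1*, the calpain small subunit, which *S100a11* exceeded 2.54-fold. *S100a11* was above *Capns1* in 3 of 3 replicates, by 1.36 ± 0.17 (SD, n = 3) in log2(FPKM + 0.1), with an exact permutation p of 0.25.

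In the deposited FPKM, *S100a4* and *S100a10* were the most even of the expressed members between replicates. For the 8 expressed members the SD of log2(FPKM + 0.1) ranged from 0.018 (*S100a4*) to 0.21 (*S100a16*), with a median of 0.090, against a median of 0.163 over the 10011 genes with at least 1 FPKM in all replicates. It lay below that all-gene median for 5 of 8, which is near the share of genes that a median leaves below it. After each replicate was rescaled to the same sum it did so for 8 of 8, with medians of 0.099 and 0.167. Before rescaling, only 1.4% of the 10011 genes had a smaller SD than *S100a4* and 3.8% a smaller one than *S100a10*. This evenness depended on the scale, and after rescaling *S100a13* was more even than both.

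In the deposited FPKM, the differences between replicates ran in opposite directions. *S100a11*, *S100a10*, *S100a1*, *S100a6* and *S100a13* were highest in replicate 3 and lowest in replicate 4. *S100a4* and *S100b* were the reverse, and *S100a16* was highest in replicate 1 and lowest in replicate 4. The FPKM sum was also largest in replicate 3 (394507) and smallest in replicate 4 (358891). After rescaling to the same sum, *S100a10* and *S100a13* were highest in replicate 4 and lowest in replicate 3. *S100a11* stayed highest in replicate 3 but was lowest in replicate 1. The log2 difference of replicate 3 over 4 ranged from -0.16 (*S100b*) to 0.36 (*S100a6*), within the SD of 0.45 over all 10011 genes. Across the 8 genes, which share the same libraries and are not independent replicates, this difference rose with the GC content of their exons (48.3% to 55.3%), with Pearson's r = 0.81 and Spearman's rho = 0.84. The part of GC content in it was not tested.

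**Figure D5:**
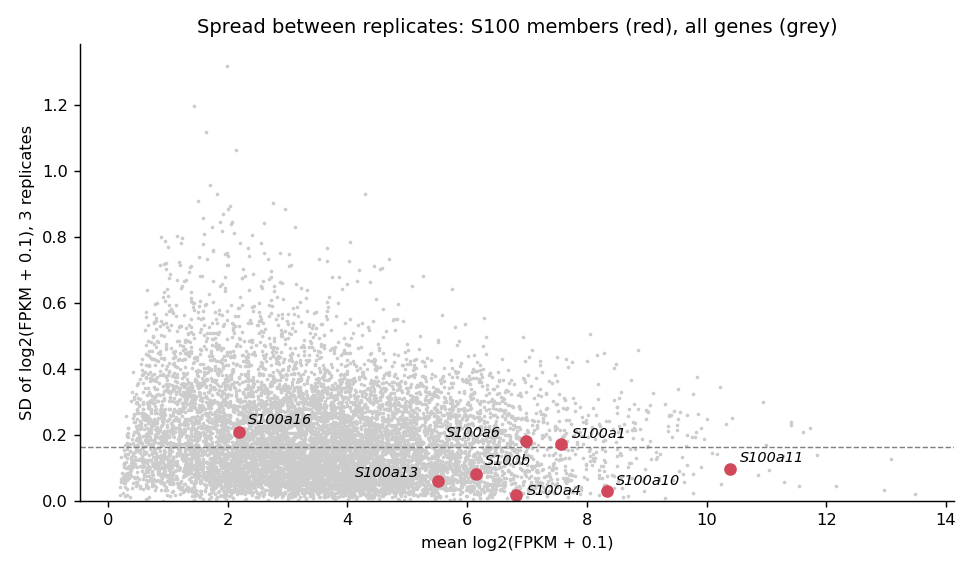
SD of log2(FPKM + 0.1) over the 3 replicates against its mean, for the 10011 genes with at least 1 FPKM in all replicates (grey) and the 8 expressed S100 members (red), with a dashed line at the all-gene median of 0.163. *S100a4* and *S100a10* lie near the bottom edge, and *S100a16*, *S100a6* and *S100a1* lie above the line.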

How the data were processed

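Polyadenylated RNA of 3 melan-a samples was sequenced from stranded libraries. According to the study's methods and the submitters' processing notes, the authors trimmed the start of each read, aligned reads to mm9 with STAR 2.3.0e, removed rRNA reads and counted the rest on Ensembl release 67 with HTSeq 0.5.3p3. The authors deposited FPKM values with TMM scaling, given to 2 decimals. How counts became FPKM, which gene length was used and whether strand was used in counting are not given in the sources used here.

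Levels, shares, SDs and paired differences in log2(FPKM + 0.1), each tested with a two-sided exact permutation test of sign flips, were computed from the deposited FPKM without a filter. Gene positions, lengths and symbols came from GENCODE annotation of Ensembl release 65 on mm9, which held 22324 of 22698 identifiers. Lengths were those of joined exons. Library sizes were recovered from 48 to 60 genes of under 400 bases with 1 transcript, whose FPKM times length must give whole reads. These genes then lay 0.036 to 0.052 reads from a whole number on average. In simulated data, 4 of 4 library sizes were recovered within 2%. Reads per gene are therefore estimates after the authors' scaling. Intervals and floors cover counting error only. Copies were searched with BLAST+ 2.17.0 (at least 85% identity over at least 50% of the transcript). Loop sequences were read from the mm9 genome and annotated transcripts.

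The members and the lists of partners, receptors, EF-hand genes, fused-type genes and cell type markers were chosen with earlier results of these data known. All members and all other S100 genes were named, and the other lists were given by counts, with values for partners and receptors. Some listed genes and a loop sequence are not reported here. Markers given by name, *Capns1*, *Gm7665*, *Gm12854*, *Gm5068*, *Gm9774* and *Dip2a* were added after their values were seen. Of 13 EF-hand genes listed, *Chp1* was not matched by symbol. Alternatives were each replicate left out, rescaled values, other pseudocounts, levels and backgrounds, the median, shares of reads and shares over all S100 genes. The longest coding transcript as length and the reads of the copy added to *S100a11* were chosen after seeing the data. Tools were Biopython 1.88, pysam 0.24.0, pandas 2.3.3, numpy 2.4.6 and matplotlib 3.10.9 under Python 3.11.15.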

Additional observations from a re-analysis of the deposited data

How the results depend on the processing

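No paired analysis was possible because the 3 replicates form a single group, with no samples of another group to pair them with. The paired differences given are between genes of the same library. Among summary results, 35 recomputed values stayed within the limits set for them and 6 moved. The summed level of the 10 members was 5883 on the scale where each replicate has the same larger sum (a change of unit) and 2495 FPKM with the length of the longest coding transcript. The share of *S100a11* was 45.53% of the reads, 54.04% with that length and 62.84% with the reads of *Gm7665* added. The count of members with a smaller spread than the all-gene median went from 5 to 8 after rescaling. Leaving out 1 replicate gave sums of 2149 to 2280 FPKM, shares of 60.47% to 60.91% for *S100a11*, and 7 to 8 neighbouring pairs without overlap. Among values of single genes and pairs, 185 stayed, 12 moved and 1 turned its sign, *S100a6* against *S100a4* with the longest coding transcripts (-0.06). The 12 were levels of single genes, 9 after rescaling, a change of unit, and 3 with the other length. Differences of pairs counted as stayed while their sign held, even where their size changed. With the other length, *S100a11* against *S100a10* went from 2.07 to 1.24 and *S100a10* against *S100a1* from 0.75 to 1.54. The sign flip test cannot pass 0.05 with 3 replicates, so its p says nothing about stability. At these library sizes, a count of 0 allows levels up to 0.162 FPKM for *S100a8* and 0.122 FPKM for *S100a9*. These are the floors of 3 reads in replicate 3, where they were highest. *S100a8* was at 0 in replicate 1 only, and its 0.15 FPKM in replicate 4 was above the floor there (0.116 FPKM).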
